A study of Mus musculus with 8 samples.

Results

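The genes described here are 10 genes of insulin-like growth factor (IGF) and mTOR signaling, chosen by name from the 24054 genes in the deposited table: Igf1, Igf2, Igf1r, Igfbp3, Igfbp4, Igfbp5, Mtor, Rptor, Rps6kb1 and Tsc2. They were measured by RNA-seq in soleus (SOL) muscle of 4 MI4KO mice and 4 flox mice, all male C57BL/6 animals recorded in the labels on a high fat diet, with 1 library per mouse. MI4KO mice carried floxed Irf4 alleles together with Cre knocked into Myl1, a driver selective for skeletal muscle, and flox mice carried the floxed alleles without Cre. Irf4 encodes interferon regulatory factor 4, a transcription factor. Nuclei of vessels, connective tissue and immune cells in the muscle do not carry the deletion, and the age of the sequenced mice was not given in the sources used here. The study examined how IRF4 acts on muscle glycogen and exercise capacity, and looked at mTOR signaling as a possible route from IRF4 to PTG, a protein that promotes glycogen synthesis. It reported higher mTOR signaling in MI4KO mice by Western blot of another muscle, the gastrocnemius. The study described the glycogen and exercise capacity of MI4KO mice on chow diet and named no diet for that blot. Its results may therefore come from another diet than these libraries. The values here address the mRNA of the pathway's genes in SOL, not the activity of its kinases. All 10 genes passed the filter for low values, which asked that 4 or more of the 8 mice reach a value of 1 and which 11865 of 24054 genes passed.

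IGF-I and IGF-II are secreted growth factors that act through the IGF-I receptor, a tyrosine kinase at the cell surface. Binding proteins carry them outside the cell and release or withhold them. Inside muscle fibers the receptor signals through PI3K and AKT to mTOR complex 1, a kinase complex that raises protein synthesis and fiber growth and that the TSC complex holds in check.

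Each value below is a TMM-normalized CPM, a read count taken relative to library size and scaled so that most genes keep 1 level across libraries. Libraries held 13417512 to 16384565 reads on genes, and 3 reads corresponded to 0.181 to 0.225. The mean of Irf4 was 1.35 ± 0.451 (SD, n = 4) for flox and 0.715 ± 0.324 (SD, n = 4) for MI4KO, with a log2 fold change of -0.45 (standard error 0.20, unadjusted p = 0.0402, adjusted p = 1.0 by limma). The groups overlapped because flox mouse 1, at 0.686, was below 3 of the 4 MI4KO mice. Between 4 and 23 reads per mouse stood behind these gene-level values of Irf4, which may also count reads outside the deleted exons. SOL fiber genes were abundant in every mouse, with Myh7, the slow myosin heavy chain, at 11079 to 14577. A pair of libraries stood apart in liver genes or in glucocorticoid-responsive genes. Flox mouse 1, the flox mouse with low Irf4, held liver RNA, with a sum of 190.5 over 16 liver genes against 1.52 to 3.47 in the other 7 mice, where 5 of the 16 genes had no read in any mouse. MI4KO mouse 3 had the highest value for 12 of 12 glucocorticoid-responsive genes (summed value 4382, against 2497 to 2871 in the other mice) and for 30.9% of all genes tested.

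None of the 10 genes passed any rule used here for a difference between MI4KO and flox SOL. By limma on log2(value + 1), 0 of the 10 had an unadjusted p under 0.05 (3.36% of all 11865 genes tested did), 0 also reached a 1.5-fold change (0.219% of all genes tested), and 0 had groups that did not overlap (2.07% of all genes tested). In that test 0 genes of the whole table had a Benjamini-Hochberg adjusted p under 0.05, and 399 had an unadjusted p under 0.05. The adjusted p of each of the 10 genes was 1.0. Of the 10 log2 fold changes, 5 were below 0 and 5 above 0, and 5 were smaller in size than the median size over all genes tested (0.07). The median log2 fold change was 0.00 for the 10 genes and -0.01 for all genes tested. Igf1 and Igfbp5 were the 2 genes whose 95% interval reached beyond a 1.5-fold change, while the intervals of the other 8 stayed inside it. The added 1 makes fold changes of low genes such as Irf4 and Igf1 smaller than those of the values themselves.

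**Figure D1:**
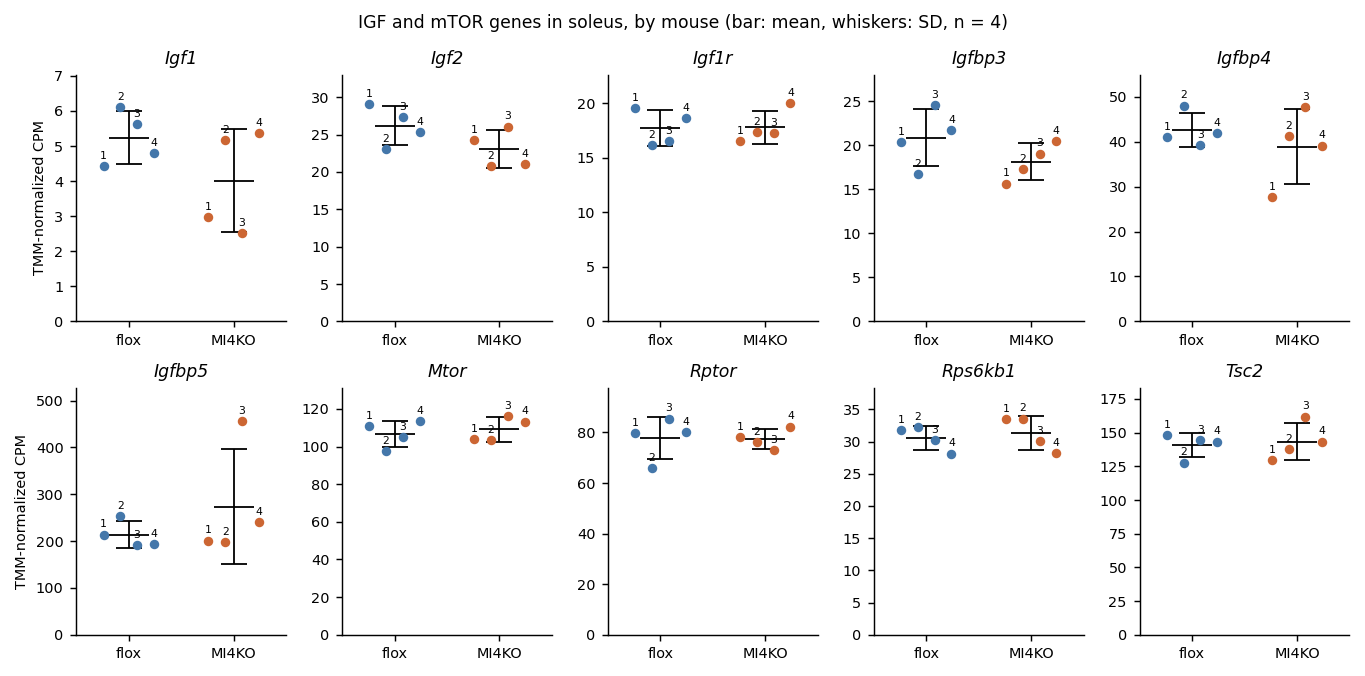
Values of the 10 genes in each mouse, as TMM-normalized CPM on axes that start at 0. Points are mice numbered within their group (flox left, MI4KO right), the long bar is the group mean and the whiskers are the SD (n = 4). The groups overlap in every panel, Igf1 is lowest in MI4KO mice 1 and 3, and Igfbp5 is highest in MI4KO mouse 3 at 455.

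**Figure D2:**
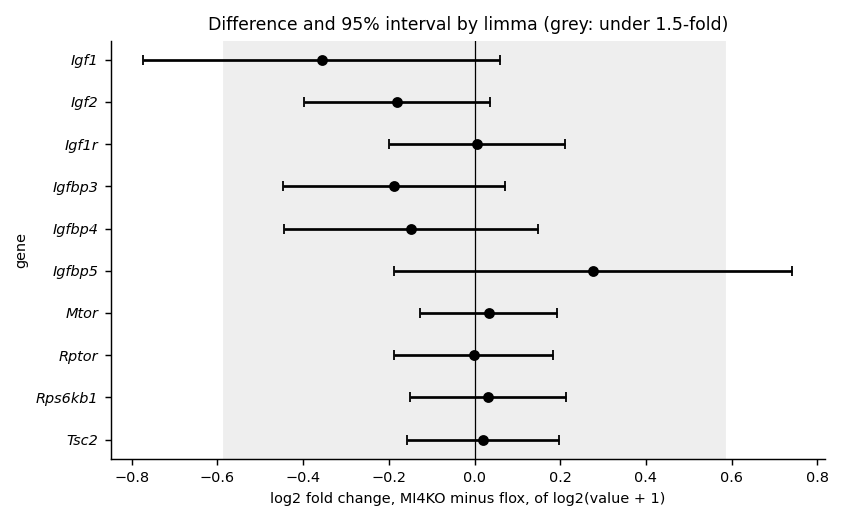
Log2 fold change of each gene, MI4KO minus flox, on log2(value + 1), with the 95% interval from limma; the grey band marks changes under 1.5-fold. All 10 intervals hold 0, and the widest are those of Igf1 and Igfbp5.

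The ligand genes had lower means in MI4KO mice, without passing the test. Igf1, which encodes IGF-I, lies on chromosome 10 from 87858265 to 87937042 on the plus strand (GENCODE M21, GRCm38). Igf1 was at 4.43, 6.10, 5.63 and 4.81 in flox mice 1 to 4 and at 2.97, 5.17, 2.53 and 5.38 in MI4KO mice 1 to 4. MI4KO mice 1 and 3 were below every flox mouse, and MI4KO mice 2 and 4 were within the flox range. The group means were 5.24 ± 0.763 and 4.01 ± 1.47 (SD, n = 4), a log2 fold change of -0.36 (standard error 0.19, 95% interval -0.77 to 0.06, unadjusted p = 0.0862 by limma). Between 38 and 89 reads per mouse stood behind Igf1, a counting error of 10.6% to 16.2%. The SD between mice was 14.5% of the mean in flox and 36.7% in MI4KO. The interval, from 0.585-fold to 1.04-fold, leaves a wide range of changes that this number of mice and reads could not tell apart.

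The difference in Igf1 moved with the mice included. Its log2 fold change was -0.20 without MI4KO mouse 3 (unadjusted p = 0.252 by limma), -0.26 without MI4KO mouse 1 (unadjusted p = 0.217) and -0.27 without flox mouse 1 and MI4KO mouse 3 together. Without MI4KO mouse 2 it was -0.47 (unadjusted p = 0.0341), and without MI4KO mouse 4 it was -0.49 (unadjusted p = 0.0259), with adjusted p-values still far from 0.05. In these fits 457 and 618 of all 11865 genes tested were below an unadjusted p of 0.05, against 399 with all mice. Flox mouse 1, the library with liver RNA, had the lowest Igf1 of the flox mice, and Igfbp1, a binding protein made mainly in liver, had 1 read there and none in the other mice. Any part of the liver RNA in the Igf1 value of flox mouse 1 was not tested.

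The 2 MI4KO mice with low Igf1 also had the fewest reads from adipocyte genes. The sum over 5 adipocyte markers (Adipoq, Plin1, Lep, Cidec and Retn) was 7.76 in MI4KO mouse 1 and 12.9 in MI4KO mouse 3, against 20.3 to 35.5 in the other 6 mice. Sums over 6 fibroblast genes were also lowest in these mice, at 284 and 323 against 360.0 to 477 in the others. Macrophage markers summed to 15.7 to 21.8, Schwann cell markers to 86.8 to 124 and satellite cell markers to 2.97 to 5.80 over the 8 mice. MI4KO mouse 1 was lowest for the adipocyte, fibroblast, endothelial and satellite cell sums, MI4KO mouse 3 for the Schwann cell sum and flox mouse 2 for the macrophage sum. The part of these cell types in the Igf1 values was not tested, and in bulk muscle fewer cells of a type and less RNA per cell cannot be told apart.

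Igf2, the gene of IGF-II, lies on chromosome 7 from 142650766 to 142666816 on the minus strand. Igf2 was at 29.1, 23.1, 27.3 and 25.4 in flox mice 1 to 4 and at 24.3, 20.8, 26.1 and 21.0 in MI4KO mice 1 to 4. MI4KO mice 2 and 4 were below every flox mouse, and they were not the mice in which Igf1 was low. Its log2 fold change was -0.18 (standard error 0.10, 95% interval -0.40 to 0.04, unadjusted p = 0.0959 by limma), with means of 26.2 ± 2.56 and 23.0 ± 2.58 (SD, n = 4). Leaving out MI4KO mouse 3 gave -0.24 for Igf2 (unadjusted p = 0.0279 by limma). Leaving out MI4KO mouse 1 or flox mouse 1 put 0 of the 10 below an unadjusted p of 0.05, beside 2.72% and 3.71% of all genes tested. Without MI4KO mouse 3, 5.01% of all genes tested were below it. H19, the imprinted noncoding gene next to Igf2, had similar ranges in both groups, 1593 to 1899 for flox and 1296 to 1917 for MI4KO, with a log2 difference of -0.04 (standard error 0.12).

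Igf1r, on chromosome 7 from 67952827 to 68233668 on the plus strand, encodes the receptor through which both ligands signal. Igf1r was at 19.6, 16.2, 16.5 and 18.7 in flox mice 1 to 4 and at 16.5, 17.3, 17.3 and 20.0 in MI4KO mice 1 to 4. The groups covered nearly the same range. MI4KO minus flox, Igf1r differed by 0.01 on the log2 scale (standard error 0.09, 95% interval -0.20 to 0.21, unadjusted p = 0.953 by limma), which bounds a change between 0.870-fold and 1.16-fold. Insr, the insulin receptor gene, had a log2 fold change of 0.02, and Igf2r, whose product clears IGF-II from the cell surface, one of -0.07.

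Of the binding protein genes, Igfbp3 and Igfbp4 had lower means in MI4KO mice and Igfbp5 a higher mean, each within the spread between mice. Igfbp3, whose product is the main IGF carrier in blood, lies on chromosome 11 from 7206086 to 7213923 on the minus strand. It was at 20.4, 16.8, 24.6 and 21.8 in flox mice 1 to 4 and at 15.7, 17.3, 19.1 and 20.5 in MI4KO mice 1 to 4. MI4KO mouse 1 was the lowest and flox mouse 3 the highest. A log2 fold change of -0.19 resulted for Igfbp3 (standard error 0.12, unadjusted p = 0.140 by limma), and one of -0.28 without flox mouse 2 (unadjusted p = 0.0270).

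Igfbp4, a binding protein known mainly as an inhibitor of IGF action, lies on chromosome 11 from 99041244 to 99054392 on the plus strand. Igfbp4 was at 41.0, 48.0, 39.2 and 41.9 in flox mice 1 to 4 and at 27.6, 41.2, 47.7 and 39.1 in MI4KO mice 1 to 4. Only MI4KO mouse 1 was clearly below the others. The log2 fold change of Igfbp4, -0.15 with all 8 mice (standard error 0.14, unadjusted p = 0.299 by limma), was 0.00 without that mouse. MI4KO mouse 1 also had the lowest sum over 5 endothelial markers (Pecam1, Cdh5, Kdr, Tek and Cldn5), 224 against 298 to 351 in the other 7 mice, and their part in the low Igfbp4 was not tested. In the same mouse Igfbp7, a related protein abundant in vessel walls, was at 55.1, against 72.1 to 90.5 in the others.

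**Figure D3:**
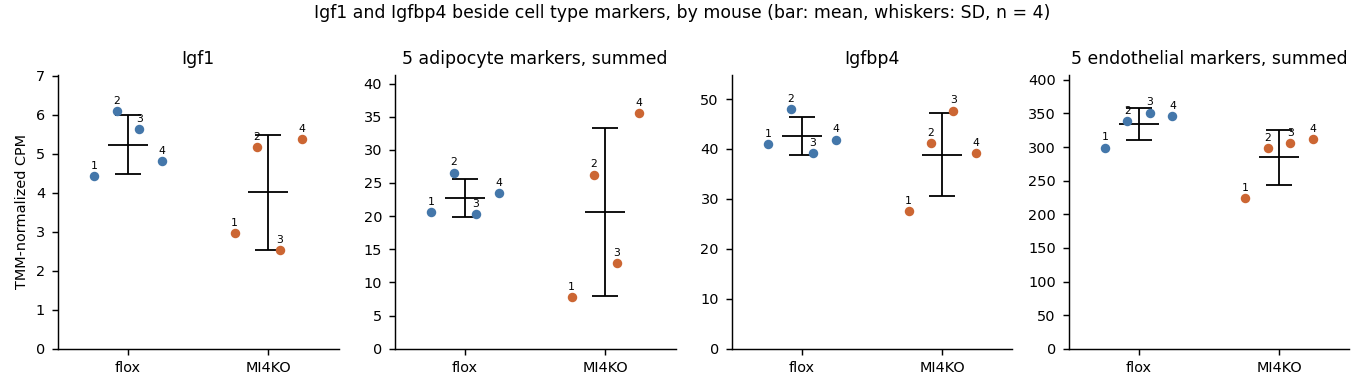
Igf1 beside the sum of 5 adipocyte markers, and Igfbp4 beside the sum of 5 endothelial markers, as TMM-normalized CPM in each mouse; points are numbered mice, bars are means and whiskers are SD (n = 4). MI4KO mice 1 and 3 are lowest for Igf1 and for the adipocyte sum, and MI4KO mouse 1 is lowest for Igfbp4 and for the endothelial sum.

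Igfbp5, the binding protein gene expressed strongly in muscle itself, lies on chromosome 1 from 72857932 to 72874884 on the minus strand. Igfbp5 was at 214, 254, 191 and 194 in flox mice 1 to 4 and at 201, 197, 455 and 240.5 in MI4KO mice 1 to 4. MI4KO mouse 3 was far above the other 7 mice, and the other MI4KO mice were within the flox range. With all mice the log2 fold change of Igfbp5 was 0.28 (standard error 0.21, 95% interval -0.19 to 0.74, unadjusted p = 0.220 by limma), and it was 0.00 without MI4KO mouse 3. That mouse had the highest Igfbp5 and the lowest Igf1, so the ratio of their values was 180.3 there, against 34.0 to 67.6 in the other 7 mice. With 2552 to 6850 reads per mouse the counting error of Igfbp5 was 1.21% to 1.98%, far below the differences between mice. The part of the glucocorticoid-responsive genes that were high in this mouse in its Igfbp5 value was not tested.

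**Figure D4:**
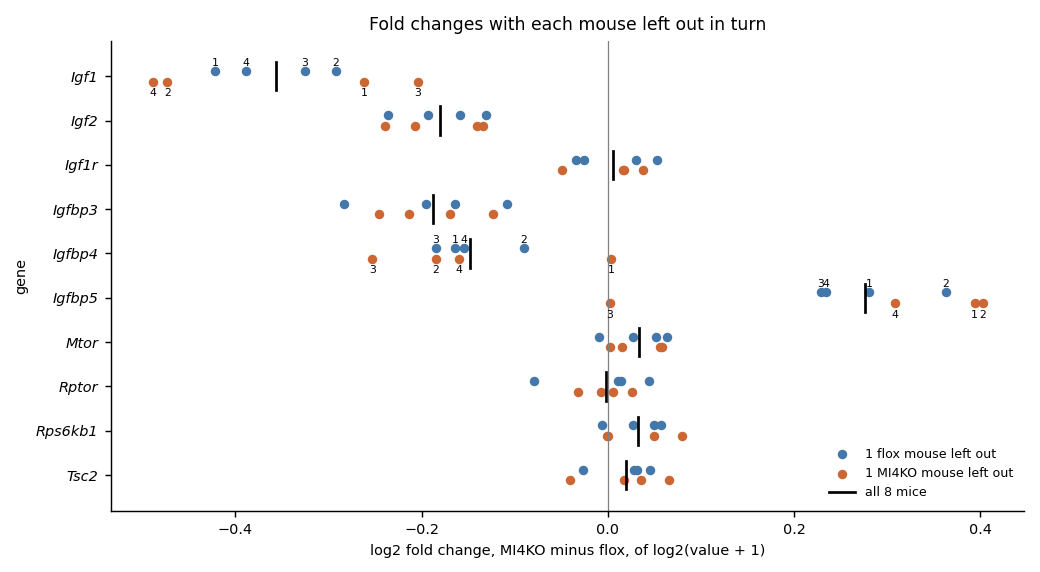
Log2 fold changes (MI4KO minus flox, on log2(value + 1)) of the 10 genes with all 8 mice (black bar) and with 1 flox mouse (blue) or 1 MI4KO mouse (orange) left out; numbers at Igf1, Igfbp4 and Igfbp5 give the mouse left out. The difference of Igfbp5 is 0.00 without MI4KO mouse 3 and that of Igfbp4 is 0.00 without MI4KO mouse 1, while Igf1 stays below 0 throughout, from -0.49 to -0.20.

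The mTOR complex genes were at nearly equal levels in both groups. Mtor, the kinase itself, lies on chromosome 4 from 148448611 to 148557683 on the plus strand. It was at 111, 97.5, 105 and 114 in flox mice 1 to 4 and at 104, 103, 116 and 113 in MI4KO mice 1 to 4. MI4KO mice 1, 2 and 4 lay within the flox range and MI4KO mouse 3 slightly above it. The log2 fold change of Mtor was 0.03 (standard error 0.07, 95% interval -0.13 to 0.19, unadjusted p = 0.663 by limma), so these data bound a change in Mtor mRNA between 0.916-fold and 1.14-fold.

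Rptor encodes raptor, the subunit that brings substrates to mTOR complex 1, on chromosome 11 from 119602905 to 119899576 on the plus strand. It was at 79.6, 65.9, 85.5 and 80.2 in flox mice 1 to 4 and at 78.2, 76.2, 72.9 and 82.3 in MI4KO mice 1 to 4. All MI4KO mice lay within the flox range. For Rptor the log2 fold change came to 0.00 (standard error 0.09, 95% interval -0.19 to 0.18, unadjusted p = 0.979 by limma), and its sign changed with the scaling, as described in the closing section.

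Downstream and upstream of the complex the picture was similar. Rps6kb1, which encodes the S6 kinase p70S6K, an mTOR complex 1 substrate, lies on chromosome 11 from 86498871 to 86544805 on the minus strand. It was at 31.7, 32.2, 30.2 and 28.1 in flox mice 1 to 4 and at 33.4, 33.6, 30.0 and 28.2 in MI4KO mice 1 to 4. MI4KO mice 1 and 2 were slightly above every flox mouse. Rps6kb1 had a log2 difference of 0.03 (standard error 0.08, 95% interval -0.15 to 0.21, unadjusted p = 0.710 by limma).

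Tsc2 encodes tuberin, the part of the TSC complex that switches off RHEB, the direct activator of mTOR complex 1. The gene lies on chromosome 17 from 24595816 to 24632630 on the minus strand. Tsc2 was at 148, 127.8, 144 and 143 in flox mice 1 to 4 and at 129.6, 138, 162 and 143 in MI4KO mice 1 to 4. MI4KO mouse 3 was the highest and flox mouse 2 the lowest. The log2 fold change of Tsc2 was 0.02 (standard error 0.08, 95% interval -0.16 to 0.20, unadjusted p = 0.815 by limma).

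Some of these genes overlap others on the opposite strand, and the strand setting of the counting is not given in the sources used here, so reads of the partners may be shared. Mtor overlaps Angptl7 (3.63 to 5.83 in the 8 mice), Rps6kb1 overlaps Rnft1 (17.5 to 26.6) and Tsc2 overlaps Pkd1 (28.0 to 44.1). Angptl7 had a log2 difference of 0.09 (unadjusted p = 0.560 by limma) and Pkd1 one of -0.12 (unadjusted p = 0.338). The antisense genes Igf2os and Rptoros were at most at 0.249 and 0.0750. Of genes next to the 10 without overlap, Tubd1 beside Rps6kb1 had a log2 difference of -0.01, Nthl1 beside Tsc2 one of -0.27 (unadjusted p = 0.0982), and Ins2 beside Igf2 no read in any mouse.

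Divided by the length of their merged exons (GENCODE M21), the genes ranked clearly at both ends and not in the middle. On this scale, values per kb, Igfbp5 had a median of 34.5 over the 8 mice, Tsc2 followed at 14.9 and Mtor at 10.7. Igf1r had a median of 1.03 per kb and Igf1 the lowest, 0.504 per kb. Mtor (10.7), Igfbp4 (9.31), Igfbp3 (6.30), Rptor (5.86), Igf2 (4.34) and Rps6kb1 (3.58) each overlapped their neighbor in this order. With the longest coding transcript as the length, Rptor moved from place 6 to place 4. Raptor's counterpart in mTOR complex 2, Rictor, was at 0.471 per kb, and H19 stood far above all of them at 719 per kb.

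The windows of 250 bases before the RefSeq starts (GRCm38.p6) of the 10 genes, 13 in all, were searched on both strands for the letters of 5 motifs. The interferon-stimulated response element bound by IRF family members, searched as GAAA and GAAA separated by 2 bases of any kind, was in 0 of the 13 and in 2.98% of all 32851 windows. The glucocorticoid response element, AGAACA and TGTTCT separated by 3 bases, was in 0 of 13 (0.00913% of all), and the FOXO core TGTTTAC in 0 of 13 (3.17% of all). TATAAA was in the window of Igfbp4 alone, 28 bases before its start (12.4% of all). CCAAT was in windows of Igf1, Igf2 and Mtor (33.8% of all), with 4 matches in Mtor, 195, 93, 77 and 36 bases before the start. The Igf1 window lies wholly inside exons of GENCODE M21, so its match is in annotated transcribed sequence. CCAAT and TATAAA are promoter elements that bind NF-Y and TATA-binding protein, and a match of letters is no evidence of binding. Shown are the window of Mtor, for its 4 CCAAT matches, and that of Igfbp5, the gene with the largest difference between single mice of one group; capitals mark CCAAT or its complement ATTGG, and the Igfbp5 window holds none of the 5 motifs and reaches 19 bases into the first exon as GENCODE M21 draws it.
Mtor, chr4:148448332-148448581, plus strand: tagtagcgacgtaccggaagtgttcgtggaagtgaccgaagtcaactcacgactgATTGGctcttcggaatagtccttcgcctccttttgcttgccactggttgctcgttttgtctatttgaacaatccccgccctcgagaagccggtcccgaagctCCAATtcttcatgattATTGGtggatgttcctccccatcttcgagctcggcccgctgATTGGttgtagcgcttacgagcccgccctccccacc
Igfbp5, chr1:72874866-72875115, minus strand: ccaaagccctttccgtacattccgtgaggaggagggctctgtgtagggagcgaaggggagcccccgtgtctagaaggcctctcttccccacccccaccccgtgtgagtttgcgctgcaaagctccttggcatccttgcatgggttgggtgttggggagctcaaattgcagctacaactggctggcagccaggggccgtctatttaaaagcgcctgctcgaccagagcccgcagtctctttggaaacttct

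The wider pathway was examined in 9 lists with 106 genes, of which 95 passed the filter. By limma, 5 of the 95 were below an unadjusted p of 0.05, which is 5.26% against 3.36% of all genes tested. Of the 5, 4 were lower in MI4KO mice (2.95% of all genes tested were) and 1 was higher (0.413% were). With all mice, none of the 95 also reached a 1.5-fold change on log2(value + 1). On that scale the changes of low genes, such as Stc2 below, come out smaller than those of the values themselves. Groups did not overlap for 3 of the 95 (3.16% against 2.07% of all genes tested), with 2 genes lower in MI4KO mice (1.7% of all genes tested) and 1 higher (0.371%). The median log2 fold change over the 95 genes was 0.01. Every adjusted p was 1.0.

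Among the other receptors, binding proteins and proteases, 8 of 15 genes were tested and 2 had an unadjusted p under 0.05, both lower. Stc2 encodes stanniocalcin 2, a secreted inhibitor of the protease that releases IGFs from IGFBP4. Stc2 was at 1.93, 2.22, 1.88 and 2.33 in flox mice 1 to 4 and at 1.67, 1.49, 0.399 and 1.27 in MI4KO mice 1 to 4, so the groups did not overlap. Its log2 fold change was -0.53 (standard error 0.19, unadjusted p = 0.0183 by limma), and -0.32 without MI4KO mouse 3, in which 6 reads were counted. Without MI4KO mouse 1 it was -0.63 (unadjusted p = 0.00886 by limma), past the 1.5-fold limit. The ratio of the means themselves, MI4KO to flox, was 0.577 with all mice. For Igfbp7 the log2 fold change was -0.26 (standard error 0.11, unadjusted p = 0.0300), and -0.16 without MI4KO mouse 1 (unadjusted p = 0.0971). The 5 endothelial markers also had log2 fold changes below 0, with a median of -0.21 (-0.26 without MI4KO mouse 3). Kdr (-0.37) and Cdh5 (-0.29) had an unadjusted p under 0.05 by limma, as did 3.36% of all genes tested. The groups overlapped for all 5 markers, and MI4KO mouse 1 was the lowest for 4 of the 5 markers. The median of the markers without MI4KO mouse 1 is not given here. Their part in the Igfbp7 difference was not tested. The highest of the 8 was Igfals, the gene of a subunit that stabilizes IGF complexes in blood, at 0.05, and the median of the 8 was -0.03.

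Among the mTOR complex 1 effectors, 17 of 17 genes were tested and 3 had an unadjusted p under 0.05, with a median log2 fold change of 0.00. Pdcd4, a translation repressor that S6 kinase marks for degradation, was at 13.2, 18.2, 14.0 and 15.2 in flox mice 1 to 4 and at 12.4, 13.0, 11.4 and 12.9 in MI4KO mice 1 to 4. All MI4KO mice were below all flox mice, with flox mouse 1 and MI4KO mouse 2 nearly equal. For Pdcd4 the difference was -0.26 on the log2 scale (standard error 0.11, unadjusted p = 0.0299 by limma), and -0.22 without MI4KO mouse 3 (unadjusted p = 0.0641).

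Eif4e encodes the cap-binding translation factor that the 4E-BP proteins restrain. It was at 83.9, 81.2, 82.3 and 78.7 in flox mice 1 to 4 and at 98.0, 88.0, 85.8 and 88.4 in MI4KO mice 1 to 4, without overlap of the groups. Its log2 fold change was 0.14 (standard error 0.07, unadjusted p = 0.0592 by limma). Eif4ebp3, a 4E-BP gene, had means of 4.25 ± 0.463 for flox and 3.38 ± 0.228 for MI4KO (SD, n = 4) and a log2 fold change of -0.26 (standard error 0.12, unadjusted p = 0.0459 by limma). The groups of Eif4ebp3 overlapped, with flox mouse 1 at 3.62 below MI4KO mouse 1 at 3.70. Its unadjusted p by limma was 0.0655 without MI4KO mouse 3 and 0.0249 without flox mouse 1.

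Srebf1, the gene of the lipogenic factor SREBP1 that acts downstream of mTOR complex 1, was at 29.9, 28.2, 25.2 and 28.7 in flox mice 1 to 4 and at 33.7, 29.0, 49.6 and 30.9 in MI4KO mice 1 to 4. MI4KO mouse 3 was the highest, and MI4KO mouse 2 lay below flox mouse 1. Srebf1 differed by 0.31 on the log2 scale (standard error 0.14, unadjusted p = 0.0434 by limma), and 0.15 without MI4KO mouse 3 (unadjusted p = 0.107). Lpin1, the phosphatidate phosphatase lipin 1, was at 547 in MI4KO mouse 3 and at 173 to 242 in the other 7 mice, and its log2 fold change was 0.38 with that mouse and 0.01 without it.

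**Figure D5:**
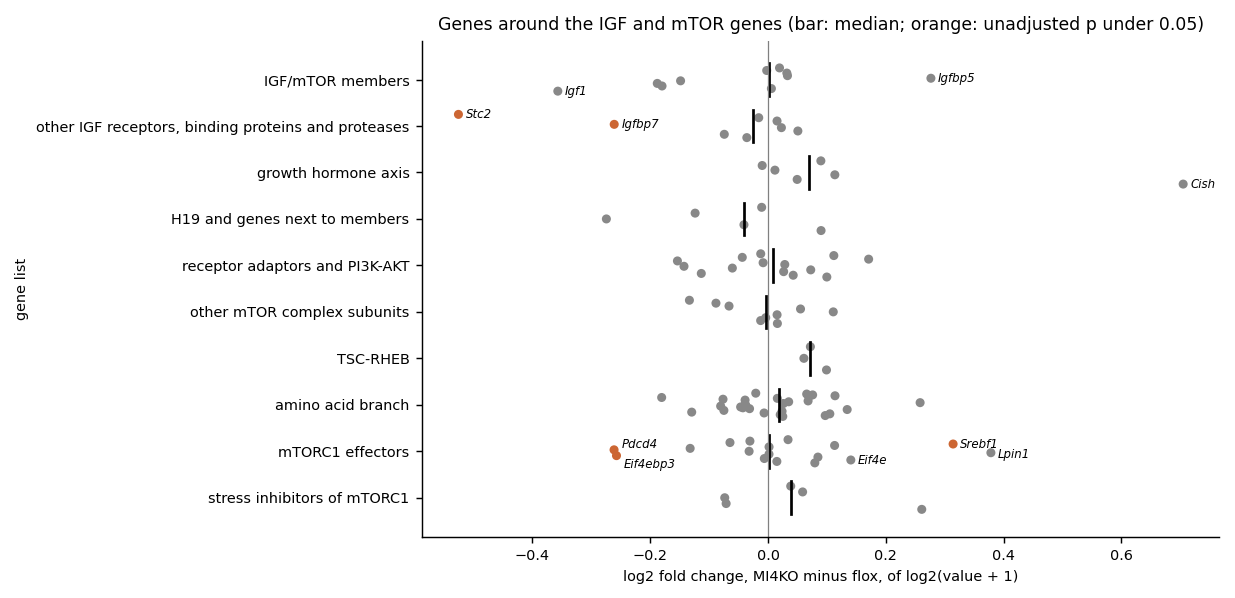
Log2 fold change (MI4KO minus flox, on log2(value + 1)) of each tested gene, 1 line for the 10 genes and for each of the 9 lists around them; black bars are list medians and orange points have an unadjusted p under 0.05. The medians lie between -0.04 and 0.07, and the orange points are Stc2, Igfbp7, Pdcd4, Eif4ebp3 and Srebf1.

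In the other lists no gene had an unadjusted p under 0.05. These were the growth hormone axis (6 of 6 tested), the receptor adaptors and PI3K-AKT (14 of 14), the other mTOR complex subunits (9 of 10), TSC-RHEB (3 of 4), the amino acid branch of Rag GTPases and their regulators (28 of 28), the stress inhibitors of mTOR complex 1 (5 of 5) and the genes next to the 10 (5 of 7). Log2 fold changes ran from -0.13 (Tti2) to 0.11 (Prr5) among complex subunits, from 0.06 (Tbc1d7) to 0.10 (Rheb) in TSC-RHEB, and from -0.18 (Sesn2) to 0.26 (Rragb) in the amino acid branch. Among receptor adaptors they ran from -0.15 (Pik3cb) to 0.17 (Pik3r1), in the growth hormone axis from -0.01 (Stat5a) to 0.70 (Cish), and among stress inhibitors from -0.07 (Prkaa1) to 0.26 (Ddit4).

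Single genes of these lists differed between mice far more than between groups, and most often in MI4KO mouse 3. All 6 genes of the growth hormone axis were highest in that mouse, and Cish, a target of growth hormone signaling that feeds back on it, was at 44.5 there and at 2.26 to 12.9 in the others. Ddit4, the stress-induced gene of REDD1, an inhibitor of mTOR complex 1, was at 90.1 there and at 8.81 to 24.4 in the others. Of the 95 list genes, 42 (44.2%) were highest in MI4KO mouse 3, as were 3 of the 10 genes themselves (Igfbp5, Mtor and Tsc2), beside 30.9% of all genes tested. Leaving out that mouse moved the log2 fold change of Cish from 0.70 to -0.05 and the median of the growth hormone axis from 0.07 to -0.05. It also left 5 of the 95 below an unadjusted p of 0.05 by limma (5.26%, beside 5.01% of all genes tested), of which Stc2 and Igfbp7 were also among the 5 with all mice.

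The genes most alike to each of the 10 were found by Pearson correlation of log2(value + 1) over the 8 mice. For each of the 10, 11864 of the genes tested were searched, and those with the highest r are given. Picking the highest r among so many genes over 8 mice favors high values, and these were not compared with chance. The genes most alike are given as a description, also because both values of a mouse come from 1 library with its depth and scaling. For Igf1 they were Man1c1 (r = 0.966) and Phldb2 (0.965), and for Igf2 Ankle2 (0.983) and Ccrl2 (0.953). Igf1r was closest to Slc29a2 (0.950) and Hiat1 (0.947), Igfbp3 to Nav3 (0.961) and Ckap5 (0.950), and Igfbp4 to Ifitm3 (0.988) and Ly6e (0.974). Igfbp5 was closest to Slc30a2 (0.981) and Rxrg (0.975), both also highest in MI4KO mouse 3. For Mtor they were Jmjd4 (0.959) and Cltc (0.952), for Rptor Zkscan1 (0.970) and Clic5 (0.967), for Rps6kb1 Fert2 (0.949) and Shf (0.948), and for Tsc2 Cic (0.987) and Polg (0.984).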

How the data were processed

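RNA from SOL of 4 MI4KO and 4 flox mice was made into stranded poly(A) libraries and sequenced as single reads of 50 bases. The authors mapped reads to UCSC transcripts with Bowtie2 2.1.0 and estimated expression with RSEM 1.2.15, and the submitters' processing notes name mm10. As signal, the authors deposited TMM-normalized CPM, 1 value per gene and mouse. The authors' fold changes, p-values and FDR were not used. Whole reads were recovered from the steps of each column (100% of non-zero values within 0.01 of a whole read) and gave the depths and counting errors, which cover counting only. limma 3.58.1 (R 4.3.3) with a mean-variance trend was fitted to log2(value + 1) over 11865 genes, without covariates, and p-values were adjusted over all of them. The p-values set the difference between groups against the spread between these mice, with each gene's spread drawn toward that of genes at similar levels. edgeR 4.0.16 and DESeq2 1.42.0 on recovered reads were alternatives. Of the calculations, only the limma fit was tested on simulated counts, with planted changes larger than the 1.5-fold limit. That test does not cover smaller changes.

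The 10 genes, the lists and the tests were chosen with earlier results of these data known. Named by rule were the 10 genes and Irf4, list genes past an unadjusted p of 0.05 with a 1.5-fold change or with groups that did not overlap, the extremes of each list, the genes next to the 10, and the 2 genes most alike to each. Igfbp7, Eif4ebp3, Srebf1, Rnft1, Insr, Igf2r, Rictor, Igfbp1, Rptoros, Kdr and Cdh5 were named after their values were seen. Positions are from GENCODE M21 (GRCm38) and promoter windows from RefSeq (GRCm38.p6), where all 10 genes were found by symbol. No replicate pairing was used, since the labels give none between the groups, and no protein sequence was used here.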

Additional observations from a re-analysis of the deposited data

Results flagged for a closer look

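In 74 groups of 4 mice, which were the 10 genes, Irf4 and the named list genes in each genotype, 2 values stood apart from the other mice of their group on the log2 scale by more than Dixon's 95% limit. Chance passes this limit in about 1 in 20 groups of genes not chosen by value, but some of these genes were named for extreme values or after their values were seen, so the number found is not compared with chance. Igfbp7 in MI4KO mouse 1 was at 55.1, against 72.8 to 76.2 in the other MI4KO mice. Ddit4 in MI4KO mouse 3 was at 90.1, against 10.3 to 13.5 in the other MI4KO mice.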

How the results depend on the processing

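No alternative gave any of the 10 genes an adjusted p under 0.05; over 18 alternatives the adjusted p ranged from 0.895 to 1.0. Igf1, Igf2, Igfbp3 and Igfbp5 kept their sign in all 18. Rptor turned to 0.0181 with median-of-ratios scaling, 0.0417 with library-total scaling, 0.0127 with edgeR and 0.0150 with DESeq2, and to 0.0386 without flox mouse 1 and MI4KO mouse 3, an alternative chosen after seeing the data, which also turned Tsc2 to -0.0156. Rps6kb1 turned to -0.0038 with mouse-number range as covariate. With 1 mouse left out, log2 fold changes ranged from -0.49 to -0.20 for Igf1, -0.24 to -0.13 for Igf2, -0.0490 to 0.0525 for Igf1r, -0.28 to -0.11 for Igfbp3, -0.253 to 0.0034 for Igfbp4, 0.00 to 0.40 for Igfbp5, -0.0094 to 0.0636 for Mtor, -0.0789 to 0.0445 for Rptor, -0.0063 to 0.0791 for Rps6kb1 and -0.0410 to 0.0655 for Tsc2. Igf1 had an unadjusted p under 0.05 in 2 alternatives, Igf2 in 2 and Igfbp3 in 1. These were fits without flox mouse 2 or without MI4KO mouse 2, 3 or 4. Of all 11865 genes tested, 365, 457, 594 and 618 were below it in those fits, against 399 with all mice. The cause of the changes between alternatives was not tested.

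Genes of the whole table with an unadjusted p under 0.05 and a 1.5-fold change numbered 26, and 71 with a pseudocount of 0.1, 13 with robust estimation, 65 with edgeR, 51 with DESeq2, 41 without flox mouse 1 and MI4KO mouse 3, and 19 to 58 with 1 mouse left out (58 without MI4KO mouse 4). Genes with an adjusted p under 0.05 numbered 0 to 1 with 1 mouse left out (Hist2h3c2, without MI4KO mouse 2) and 1 without flox mouse 1 and MI4KO mouse 3 (Jmjd7-pla2g4b). No paired analysis was made because the labels match no MI4KO mouse to a flox mouse. The numbers fall in 2 ranges that both groups hold, and the range, whose meaning the labels do not give, was fitted as a covariate: Igfbp5 came to 0.38 (unadjusted p = 0.0727 by limma), Igfbp4 to -0.09 and Igf1 to -0.34, with 0 of the 10 genes at an unadjusted p under 0.05. Depth limits Igf1, with 38 to 89 reads, more than the other 9 genes, with at least 216 reads each.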
